A study of Mus musculus with 8 samples.

Results

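The hyperpolarization-activated channel genes Hcn2, Hcn3 and Hcn4 and the gene Pex5l, which encodes their trafficking partner TRIP8b, were followed in the hippocampus of young male C57BL/6 mice after repeated ketamine anesthesia. They were taken by the Ensembl identifiers that carry these symbols, which gave 4 genes of the 20802 measured, and all 4 lay above the filter on low values, a mean of at least 10 normalized counts, that 18865 genes met. The Anesthesia group held 4 mice given ketamine, an NMDA receptor blocker, intraperitoneally at 35 mg per kg once a day, 5 times from PND16, and the Control group held 4 mice given saline on the same days, although their sample titles read untreated. Hippocampal RNA was sequenced 1 week after the last injection, at an age the labels give as PND28, with 1 library per mouse.

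The values are counts that the authors normalized between libraries, so the library totals of 18702634 to 19231119 do not show depth. From the spacing of low values, Control replicate 3 was the shallowest library, at approximately 15500000 reads, and Control replicate 2 the deepest, at 22200000. The tissue was whole hippocampus, in which pyramidal cells, granule cells, interneurons and glia are mixed. All 24 listed markers of CA1, of CA2 and CA3, and of dentate granule neurons were measured above the filter. In such bulk tissue, fewer cells of a type and less RNA per cell cannot be told apart.

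HCN channels open when a neuron hyperpolarizes and pass a depolarizing cation current, called Ih, that sets resting potential, input resistance and the summation of dendritic inputs. Each channel is a tetramer, and cAMP binding to a domain in the intracellular C-terminus eases opening, strongly in Hcn2 and Hcn4 and little if at all in Hcn3. TRIP8b, a brain paralog of the peroxisomal import receptor PEX5, binds the channel at its cyclic nucleotide-binding domain and, through its tetratricopeptide repeats, at the last residues of the channel's C-terminus, and controls where and how much channel reaches the surface.

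The docking site for the repeats of TRIP8b is the C-terminal end of the channel, so the ends of the 3 HCN reading frames are shown first. Each run gives the last 30 bases of the coding sequence, with the last 9 coding bases in capitals before the stop codon, from GENCODE M21 transcripts of GRCm38. The longest complete protein-coding transcript of each gene was used.
Hcn2, chr10:79735511-79735540, plus strand: gcgcgctcgcgcctctctTCCAACTTGtga
Hcn3, chr3:89147599-89147628, minus strand: agaggtccccaaatttctGCCAACATGtga
Hcn4, chr9:58860734-58860763, plus strand: gtacgctccaaactgccgTCTAATTTAtga
The capitals of Hcn2 and Hcn4 differed at 3 of 9 bases, and all 3 of those codons were synonymous, so that both genes end in the same 3 residues. Hcn2 and Hcn3 differed at 2 bases, with 1 codon identical and 2 not synonymous. Hcn3 and Hcn4 differed at 5 bases, with 1 codon synonymous and 2 not.

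The starts of the coding sequences are shown because the G+C content of Hcn2 was among the highest of the genes tested. The runs give the first 60 coding bases of the same longest transcripts, with each CpG in capitals. For Pex5l this is 1 of 9 protein-coding transcripts, and the starts of the others were not examined.
Hcn2, chr10:79716669-79716728, plus strand: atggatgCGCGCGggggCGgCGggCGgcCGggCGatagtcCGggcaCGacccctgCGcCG
Pex5l, chr3:33082009-33082068, minus strand: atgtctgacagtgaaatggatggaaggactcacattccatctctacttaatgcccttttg
The Hcn2 run was 81.7% G+C with 12 CpG, and the Pex5l run was 41.7% G+C with 0 CpG. The first 60 coding bases of Hcn3, not printed here, were also 81.7% G+C, with 11 CpG. Those of Hcn4 were 66.7% G+C with 5 CpG. Over the whole reading frame of the same transcripts, Hcn2 held 8.53 CpG per 100 bases, Hcn3 5.6, Hcn4 5.19 and Pex5l 2.15. By the median over the protein-coding transcripts of each gene, Hcn2 was 65.2% G+C, more than 99.4% of the genes tested, whose median was 49.5%. Hcn3 and Hcn4 were both at 58.0% and Pex5l at 48.7%.

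Levels were first compared between the genes as normalized counts per kilobase of transcript, with the median length over the protein-coding transcripts of each gene. Pex5l was the most abundant at a mean of 2086 per kb over the 8 mice, above 95.7% of the genes tested. Hcn2, the highest of the 3 HCN genes analysed here, followed at 218.5 per kb, above 63.6% of genes. Hcn3 stood at 19.1 per kb, above 18.4% of genes, and Hcn4 at 6.44 per kb, above 4.05%. This order held in each of the 8 libraries, and no neighbouring pair overlapped. The lowest Pex5l value was 1850 per kb against a highest Hcn2 value of 273, the lowest Hcn2 value was 196 against a highest Hcn3 value of 30.4, and the lowest Hcn3 value was 14.8 against a highest Hcn4 value of 9.06.

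**Figure D1:**
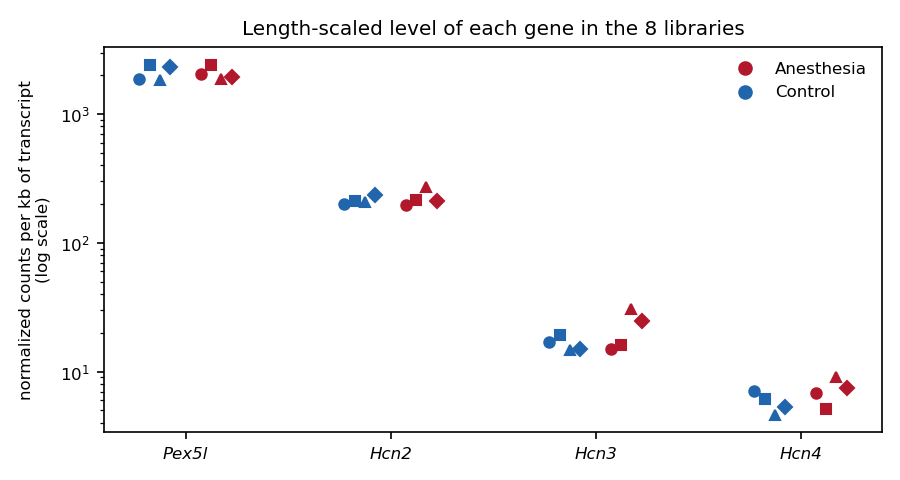
Normalized counts per kilobase of transcript (log axis) of Pex5l, Hcn2, Hcn3 and Hcn4, with 1 point per mouse in the Control and Anesthesia groups. The 4 genes form separate bands, with means of 2086, 218.5, 19.1 and 6.44 per kb, and the groups lie within each band.

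Among the 3 HCN genes analysed here, Hcn2 made up 88.8% ± 2.07 (SD, n = 4) of the summed level per kb in Anesthesia mice and 90.5% ± 1.48 (SD, n = 4) in Control mice. Hcn3 made up 8.41% ± 1.82 and 7.07% ± 1.04, and Hcn4 2.81% ± 0.44 and 2.46% ± 0.524, in the same order. The Hcn3 share in the Anesthesia mice was 6.91%, 6.77%, 9.71% and 10.2%, against 7.67%, 8.16%, 6.56% and 5.87% in the Control mice. Replicates 3 and 4 of the Anesthesia group were thus above every Control mouse, and replicates 1 and 2 were within the Control range. These are shares of the 3 genes together and not of all HCN expression, since the HCN family extends beyond them and the rest of it was not analysed here. They are descriptions and were not tested.

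None of the 4 genes differed between the groups beyond the spread between mice. Hcn3 and Hcn4 had higher means in the Anesthesia group. The mean of Hcn2 was also higher, except without Anesthesia replicate 3 or after a joint correction for G+C content and transcript length. The mean of Pex5l was slightly lower, except with a choroid plexus covariate or without any 1 of 4 mice named below. The ratios of mean normalized counts, Anesthesia to Control, were 1.05 for Hcn2, 1.3 for Hcn3, 1.23 for Hcn4 and 0.98 for Pex5l. In limma on log2(normalized count + 1), none of the 4 passed 0.05 by adjusted p (0 genes) or by unadjusted p (0 genes), and in all 4 the groups overlapped. The background in the same comparison was 0% of the 18865 genes by adjusted p (0 genes, with a smallest adjusted p of 0.381), 8.02% by unadjusted p (1513 genes, 897 higher and 616 lower) and 5.04% with groups that did not overlap (950 genes). By DESeq2 on counts, at the same adjusted threshold, the paper did report differentially expressed genes between these groups. The count of 0 therefore belongs to limma on the normalized values. The median log2 difference of the 4 genes was 0.17, beside 0.00 over all genes, of which 49.2% were higher in the Anesthesia group. It was 0.08 without Anesthesia replicate 3, 0.11 without Control replicate 3, 0.05 after the correction for G+C content and length and 0.09 with the choroid plexus covariate.

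**Figure D2:**
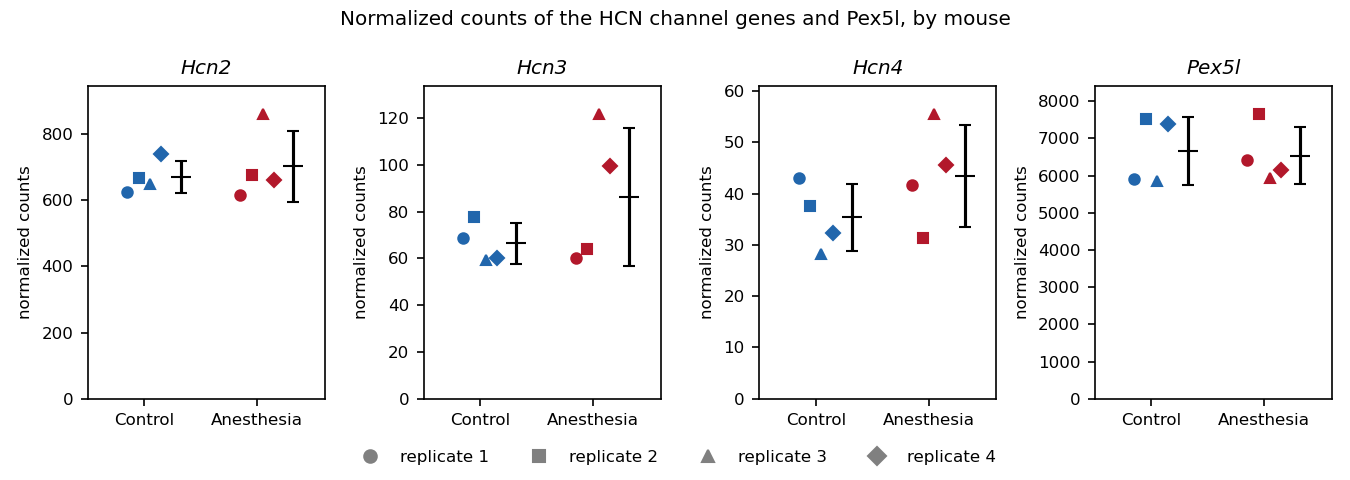
Normalized counts of Hcn2, Hcn3, Hcn4 and Pex5l in each mouse, in 1 panel per gene with its own linear axis from 0. Marker shape gives the replicate, and the bars give mean ± SD of 4 mice. The groups overlap in every panel, and Anesthesia replicate 3 holds the highest Hcn2, Hcn3 and Hcn4 values.

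Hcn2 (ENSMUSG00000020331; GRCm38 chr10:79716634-79736108, plus strand) encodes the cAMP-sensitive subunit found widely in brain. The Anesthesia mice had 616, 675.2, 858.7 and 660.7 normalized counts, and the Control mice 625.7, 666.8, 649 and 739.5, each in replicate order. Anesthesia replicate 3 stood above all other mice, replicate 1 stood below them, and replicates 2 and 4 lay within the Control range. The means were 702.7 ± 107 and 670.2 ± 49.2 (SD, n = 4 each). The log2 difference was 0.06 (SE 0.11, 95% interval -0.17 to 0.29, a fold of 0.887 to 1.22), with an adjusted p of 0.885 in limma and a two-sided exact permutation p of 0.686. The smallest p that 4 against 4 mice can give in that permutation test is 0.0286.

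The sign of the Hcn2 difference changed without a single mouse, and also with a joint correction for the G+C content and length of transcripts. Without Anesthesia replicate 3 the log2 difference was -0.04, and the mean of the other 3 Anesthesia mice was 650.6 ± 30.8. With each library corrected in that way, it was -0.10 (SE 0.08, adjusted p = 0.805 in limma). The 223 tested genes within 2.5 percentage points of the G+C content of Hcn2 had a median log2 difference of 0.06. Relative to the Control mean, their median log2 level was 0.06, 0.10, 0.10 and 0.04 in the Anesthesia mice and 0.01, -0.02, -0.02 and 0.02 in the Control mice. After the correction, Hcn2 lay at -0.20, -0.14, 0.07 and -0.15 in the Anesthesia mice, and at -0.07, -0.01, -0.02 and 0.10 in the Control mice, so that 3 of 4 Anesthesia mice were then below every Control mouse. The correction took both properties at once, and the part of either alone in the Hcn2 values was not tested.

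Hcn3 (ENSMUSG00000028051; GRCm38 chr3:89146074-89160196, minus strand) encodes a slowly gating subunit that is little affected by cAMP. The values were 60.3, 64, 121.5 and 99.5 normalized counts in the Anesthesia mice and 68.6, 77.7, 59.3 and 60.1 in the Control mice. Replicates 3 and 4 of the Anesthesia group stood above all Control mice, while replicates 1 and 2 lay among them. The means were 86.3 ± 29.4 and 66.4 ± 8.6 (SD, n = 4 each). Their log2 difference was 0.32 (SE 0.23, 95% interval -0.19 to 0.83, a fold of 0.877 to 1.78), with an adjusted p of 0.723 in limma and an exact permutation p of 0.286. It ranged from 0.14 without Anesthesia replicate 3 to 0.47 without Anesthesia replicate 1, and was 0.21 after the correction for G+C content and length (adjusted p = 0.848 in limma). These counts stand for approximately 49 to 119 reads a library, and the coefficient of variation over the 8 mice was 29.7%, beside 11.4% from counting alone. The annotated end of Hcn3 shares 711 bases with Pklr on the opposite strand. Pklr was not analysed here.

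Hcn4 (ENSMUSG00000032338; GRCm38 chr9:58823412-58863175, plus strand) encodes the slowest and strongly cAMP-sensitive subunit, known best from the sinoatrial node and, in brain, from the thalamus. The values were 41.6, 31.3, 55.4 and 45.5 normalized counts in the Anesthesia mice and 43.1, 37.6, 28.2 and 32.4 in the Control mice. Replicates 3 and 4 of the Anesthesia group were the highest of the 8, and replicate 2 was below 3 of the 4 Control mice. The means were 43.5 ± 9.96 and 35.3 ± 6.45 (SD, n = 4 each). Hcn4 had a log2 difference of 0.28 (SE 0.22, 95% interval -0.21 to 0.78, a fold of 0.862 to 1.71), with an adjusted p of 0.745 in limma and an exact permutation p of 0.229. It ranged from 0.16 without Anesthesia replicate 3 to 0.42 without Anesthesia replicate 2, and was 0.12 after the correction (adjusted p = 0.919 in limma). With approximately 23 to 54 reads a library, the coefficient of variation over the 8 mice was 22.6%, beside 15.8% from counting alone.

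Pex5l (ENSMUSG00000027674; GRCm38 chr3:32949408-33143247, minus strand) encodes TRIP8b, which is spliced into many isoforms, and 9 of its 12 annotated transcripts are protein-coding. The values were 6423, 7644, 5926 and 6144 normalized counts in the Anesthesia mice and 5909, 7520, 5853 and 7386 in the Control mice. Anesthesia replicate 2 and Control replicates 2 and 4 were at 7386 to 7644 and the other 5 mice at 5853 to 6423, so that both levels held mice of both groups. The means were 6534 ± 767.3 and 6667 ± 909.6 (SD, n = 4 each). For Pex5l the log2 difference was -0.03 (SE 0.11, 95% interval -0.26 to 0.21, a fold of 0.835 to 1.16), with an adjusted p of 0.954 in limma and an exact permutation p of 1. It ranged from -0.10 without Anesthesia replicate 2 to 0.04 without Control replicate 2, and it was also above 0 without Anesthesia replicates 3 (0.02) or 4 (0.00) or Control replicate 4 (0.03). The variation between mice was far above counting error, with a coefficient of variation of 11.9% beside 1.22% from approximately 4849 to 8857 reads a library. The values are summed over isoforms, and isoforms of TRIP8b were not analysed here.

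Other annotated genes lie within or across Pex5l, and reads that they share could not be told apart from the values per gene. On the same strand, Gm19445 averaged 402.2 and 417.4 normalized counts and Gm37443 161.3 and 162.5, in the Anesthesia and Control groups. On the opposite strand, 4930419G24Rik averaged 17.0 in both groups and Gm37459 103.5 and 123. All 4 were low beside Pex5l. The paper's methods name a kit that keeps strand and the labels another TruSeq kit, so whether strand was used is uncertain.

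**Figure D3:**
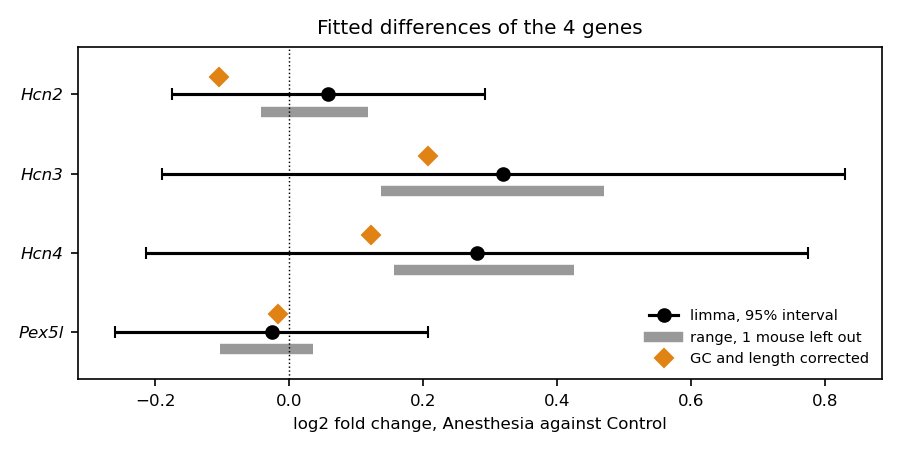
Log2 difference, Anesthesia minus Control, of Hcn2, Hcn3, Hcn4 and Pex5l, with black points and bars for limma and its 95% interval, grey bars for the range with 1 mouse left out and orange diamonds for the correction for G+C content and transcript length. Every interval spans 0, and the Hcn2 point moves from 0.06 to -0.10.

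Across the 8 mice, the HCN genes varied together in part and Pex5l did not follow them. Pearson's r of the log2 levels was 0.82 for Hcn3 and Hcn4, 0.63 for Hcn2 and Hcn3 and 0.39 for Hcn2 and Hcn4. For Pex5l it was 0.00 with Hcn2, -0.33 with Hcn3 and -0.45 with Hcn4. The 8 points include both groups and the same libraries for both genes, and Anesthesia replicate 3 is the highest point of all 3 HCN genes, so these values are descriptions only.

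The genes whose log2 levels followed each gene most closely were found among 11168 named genes with a mean of at least 100. Hcn2 was followed by Tfcp2l1 (r = 0.97), Ifnar1 (0.96) and Apln (0.95), and Hcn3 by Asb13 (0.96), Nr3c1 (0.95) and Nudcd3 (0.95). Hcn4 was followed by Ttc3 (0.98), Kcnc4 (0.96), which encodes a Kv3 potassium channel, and Tle3 (0.95). Pex5l was followed by Pmm1 (0.95), Tmem138 (0.94) and Clptm1l (0.94). Each r is the top of a search over these genes with only 8 points.

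Among the 11 marker lists, the libraries differed most in the choroid plexus list. The choroid plexus lines the ventricle beside the hippocampus, and its 15 listed markers had a summed level of 89190, 5440, 4915 and 10440 normalized counts in the Anesthesia mice and 4726, 47190, 106400 and 104100 in the Control mice. Anesthesia replicates 2, 3 and 4 and Control replicate 1 were the low libraries. All 15 markers had lower log2 means in Anesthesia mice (median log2 difference -1.88), but 0 had an unadjusted p under 0.05 in limma. The most abundant, Ttr, encoding the thyroxine carrier transthyretin, was at 53000, 393.3, 182.2 and 2679 against 144.8, 24370, 61580 and 61500. Kcne2, which is both a marker of this epithelium and a known accessory subunit of HCN channels, was at 264.9, 16.4, 2.13 and 12.2 against 0, 161.8, 285.2 and 298.6, and Control replicate 1 was the library at 0. With the mean log2 level of this list as a covariate, the log2 differences were 0.02 for Hcn2, 0.15 for Hcn3, 0.16 for Hcn4 and 0.01 for Pex5l, and 0 of the 4 genes had an adjusted p under 0.05 in limma.

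**Figure D4:**
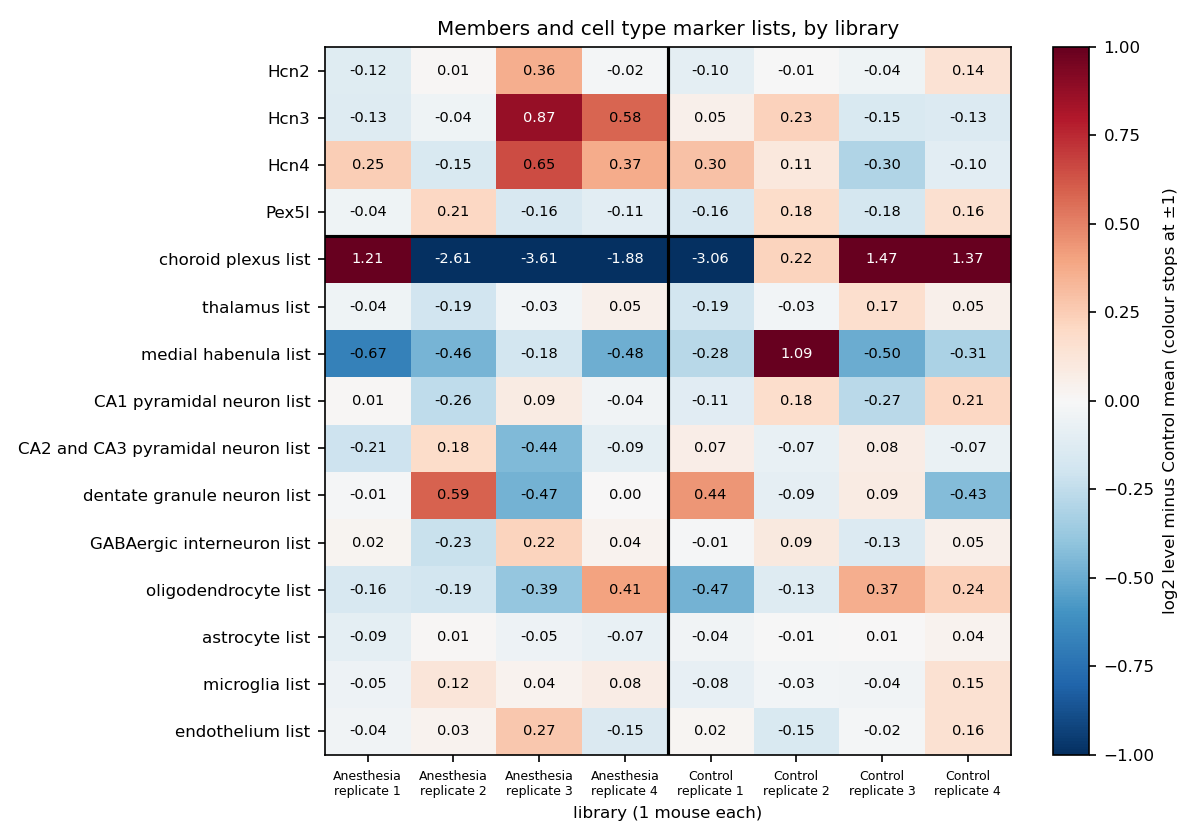
Log2 level minus the Control mean of the 4 genes and of 11 marker lists (mean over the list) in each library, with colour that stops at ±1. Anesthesia replicate 3 is at 0.36, 0.87 and 0.65 for Hcn2, Hcn3 and Hcn4, and the choroid plexus row runs from -3.61 to 1.47 across the 8 libraries.

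The neuronal marker lists of Anesthesia replicate 3 lay at the edge of the 8 libraries in 3 of 4 cases. Its dentate granule neuron list was at -0.47 and its CA2 and CA3 list at -0.44, both the lowest of the 8 libraries, and its GABAergic interneuron list at 0.22 was the highest, as log2 level minus the Control mean. The dentate list of Control replicate 4 was close to it at -0.43, and the CA1 list of Anesthesia replicate 3, at 0.09, was within the Control range. The 10 thalamus markers, listed because Hcn4 is a thalamic gene, lay at -0.04, -0.19, -0.03 and 0.05 in the Anesthesia mice and -0.19, -0.03, 0.17 and 0.05 in the Control mice, so that Anesthesia replicate 3 was not high by the mean log2 level. Their summed level was 4954, 4878, 6093 and 5420 against 4719, 4983, 5655 and 5115 normalized counts, and by this sum Anesthesia replicate 3 was the highest. Of the 10, 5 had higher and 5 lower means in Anesthesia mice, and the median log2 difference was -0.03. Rora, their most abundant gene, was 2396 in Anesthesia replicate 3, and Tcf7l2, a defining gene of thalamic neurons, averaged 36.8 in Anesthesia and 56.3 in Control mice (log2 difference -0.57, adjusted p = 0.621 in limma). With the mean log2 level of the thalamus list as a covariate, the log2 differences were 0.07 for Hcn2, 0.34 for Hcn3, 0.26 for Hcn4 and -0.05 for Pex5l. Of the 10 medial habenula markers, 7 were found (not Chrnb4, Gng8 or Pou4f1) and 5 tested, all 5 with lower means in the Anesthesia group (median log2 difference -0.45), and Control replicate 2 was the highest library at 1.09. Their sums were 1038, 852.9, 1593 and 1161 against 1233, 2276, 975.2 and 1335 normalized counts, mostly from Nwd2, and Irx2 was at 0 in Anesthesia replicate 1 and Irx1 in Anesthesia replicate 3. The part of habenular cells and of the hippocampal cell types in the HCN values was not tested.

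For the remaining marker lists, the median log2 differences were -0.06 for CA1, -0.07 for CA2 and CA3, -0.02 for dentate granule neurons, -0.02 for GABAergic interneurons, -0.07 for oligodendrocytes, -0.10 for astrocytes, 0.05 for microglia and 0.02 for endothelium. All 10 oligodendrocyte genes had lower means in the Anesthesia group, with 0 at an unadjusted p under 0.05. Among these 70 genes, 5 had an unadjusted p under 0.05 in limma, namely Kcnc1 and Slc1a2 with higher means and Dcn, Amigo2 and Gad1 with lower means in the Anesthesia group, and 0 had an adjusted p under 0.05. The count is near the background of 8.02% of all genes at an unadjusted p under 0.05, and the values of these genes are descriptions. Slc1a2 is 1 of 8 listed astrocyte genes, of which 2 had higher and 6 lower means. The groups did not overlap for 2 of these 8, both with lower means in the Anesthesia group, beside 5.04% of all genes. Of these, Slc1a3 was at 10790 to 11300 against 11700 to 12000 normalized counts. The groups also did not overlap for 1 of 8 microglia genes, with a higher mean. Gad1, which encodes the GABA-synthesizing enzyme GAD67, averaged 4417 and 4879 normalized counts, and Kcnc1, a fast-spiking Kv3 channel gene, 1469 and 1208.

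The genes around the channels were described by 5 lists, in which 0 genes had an adjusted p under 0.05 in limma. Of the 12 HCN partners and regulators, 11 were tested and Cav3 fell under the filter. The means of 6 were higher and of 5 lower in Anesthesia mice, and the median log2 difference was 0.06, or -0.04 after correction for G+C content and length. Src, a kinase that phosphorylates HCN channels, had the smallest p. Its values were 1826, 2198, 2186 and 2145 normalized counts in the Anesthesia mice and 1938, 1744, 1774 and 1857 in the Control mice. Replicates 2, 3 and 4 of the Anesthesia group were above every Control mouse and replicate 1 was not. The log2 difference was 0.19 (SE 0.07, adjusted p = 0.621 in limma), or 0.07 after the correction. Grasp (tamalin), at 374.8 to 423.3 against 280.2 to 373.5, was the 1 gene of the 11 whose groups did not overlap, beside 5.04% of all genes. Apba2, encoding the adaptor Mint2, averaged 4022 ± 164.7 and 3772 ± 134.1, with overlapping groups.

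Among the enzymes that make and break down cAMP, the ligand of the channels, some had higher and some lower means in Anesthesia mice. In limma, 0 of the cyclases and 1 of the phosphodiesterases had an unadjusted p under 0.05, beside 8.02% of all genes. Of 10 adenylyl cyclases, 7 had higher and 3 lower means in Anesthesia mice, and the median log2 difference was 0.06, or -0.04 after the correction. Adcy8, a calcium-stimulated cyclase, averaged 732.8 ± 248.1 and 578.8 ± 101.2 with Anesthesia replicate 3 at 1086, and Adcy3 1100 ± 39.1 and 1033 ± 36.4. Of 16 phosphodiesterases that degrade cAMP, 10 had higher and 6 lower means, with a median of 0.05 before and 0.04 after the correction. Pde10a, which hydrolyses both cAMP and cGMP, was at 1829, 1835, 2000 and 1819 in the Anesthesia mice and 1646, 1670, 1726 and 1508 in the Control mice. Every Anesthesia mouse was above every Control mouse, as in 5.04% of all genes. The log2 difference was 0.19 (SE 0.06, adjusted p = 0.621 in limma) and 0.17 after the correction. Pde3a averaged 249.5 ± 17.1 and 305.8 ± 56.7, a log2 difference of -0.28 (adjusted p = 0.635 in limma).

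A further list held 14 other channels with a cyclic nucleotide-binding domain or a domain homologous to it, and most of those found were Kcnh potassium channel genes. Whether these channels bind cAMP was not examined. Of the 14, 10 were found and 9 tested, 6 with higher and 3 with lower means in the Anesthesia group. The median log2 difference was 0.14, or 0.08 after the correction. The voltage-gated potassium channel gene Kcnh5 had the lowest p of these. It was at 277.8, 311.5, 844.4 and 307.9 normalized counts in the Anesthesia mice and 249.3, 258.5, 229.4 and 326.2 in the Control mice, so that Anesthesia replicate 3 stood above all other mice and the other 3 Anesthesia mice lay within the Control range. Kcnh5 had a log2 difference of 0.55 (SE 0.31, adjusted p = 0.665 in limma). Kcnh3 showed the same mouse as the highest, at 1402 beside 825.2 to 1009 in the other Anesthesia mice.

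The list of the peroxisomal import machinery, which holds the paralog of Pex5l, had 7 genes tested, 2 with higher and 5 with lower means in the Anesthesia group and a median log2 difference of -0.07. Pex5, the import receptor itself, averaged 890 ± 35.1 and 849.4 ± 69.7 normalized counts, a log2 difference of 0.07 (SE 0.07, adjusted p = 0.800 in limma). Pex13 and Pex10, of the docking and ubiquitin ligase complexes, had log2 differences of -0.14 and -0.16 with overlapping groups.

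**Figure D5:**
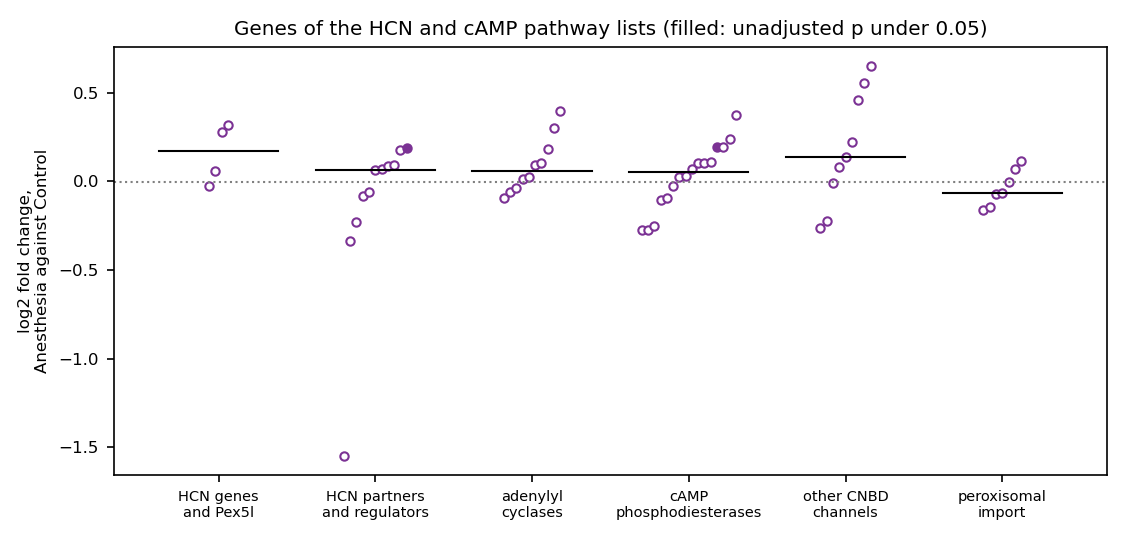
Log2 difference, Anesthesia minus Control, of each tested gene (points) in the 4 members and the 5 pathway lists, with the median of each list as a line. The list medians lie between -0.07 and 0.14, beside 0.00 over all genes, and the lowest point is Kcne2 at -1.55, a gene also listed as a choroid plexus marker.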

How the data were processed

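RNA was taken from the hippocampus of 4 Anesthesia and 4 Control mice, and the numbered columns of the table were matched to mice by group letter and number, with 0 unmatched. For quantification, the authors ran Salmon (v1.1.0) against GRCm38 and had it correct for GC bias. Gene totals were imported with tximport in R (v3.5.3), and the authors normalized them with DESeq2 (v1.30.1). The deposited values are this normalized signal, not read counts, and the annotation release and low-value filter are not given in the sources used here. The table held no columns of the authors' comparisons. A step between low values that stands for 1 read gave the approximate reads, but only 58.6% to 75.6% of low values lay within 0.1 of a whole read, so no count model was fitted. Counting errors cover counting only.

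Symbols, positions and sequences came from GENCODE M21, which held 20784 identifiers and lacked 18, and lengths are medians over protein-coding transcripts. limma (version 3.58.1 in R version 4.3.3) with a mean-variance trend was fitted to log2(value + 1) of the 18865 genes whose mean reached 10, leaving out 1937. Fold changes are on that scale, which understates low genes. Benjamini-Hochberg adjusted p-values were read at 0.05. The 4 genes, 5 pathway lists and 11 marker lists were chosen with earlier results of these data known, and lists were given no test. From each list the genes with an unadjusted p under 0.05 or, where fewer than 2 had one, the 2 genes with the smallest p, and the most abundant gene of marker lists could be named, as could the 3 genes most like each of the 4. Kcne2, Grasp, Pex5, Irx1, Irx2 and the genes overlapping Pex5l were chosen outside that rule. Of these, Kcne2, Grasp, Irx1 and Irx2 were chosen after their values were seen. A single result for 1 gene of the marker lists is not reported here. The alternatives were other scalings, voom, filters, pseudocounts of 0.1 and 5, a replicate block, a loess correction for G+C content and length, marker covariates, longest transcripts and each mouse left out.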

Additional observations from a re-analysis of the deposited data

Results flagged for a closer look

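None of the values of Hcn2, Hcn3, Hcn4 and Pex5l stood apart from its group by Dixon's test, in which 1 sample of 4 is compared with the range of its group. Of 144 groups of values examined, 14 held such a mouse, where chance gives about 1 in 20 groups (7.2 here). No explanation was tested.

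In Anesthesia replicate 3, the potassium channel gene Kcnh5 was at 844.4 normalized counts (277.8 to 311.5 in the other 3 mice), Pde10a at 2000 (1819 to 1835) and Rora at 2396 (1414 to 1577). In Anesthesia replicate 1, the choroid plexus markers Ttr, Kcnj13 and Otx2 were at 53000 (182.2 to 2679), 304.6 (45.3 to 56.6) and 165.7 (8.43 to 15.3), and Src at 1826 (2145 to 2198). In Anesthesia replicate 4, the myelin gene Mbp was at 57020 (31460 to 35290) and Tcf7l2 at 39.5 (35.7 to 36.2).

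In the Control group, replicate 4 held Amigo2 at 527.9 (628.5 to 641 in the other 3 mice) and Apln at 231.5 (201.8 to 205.3). Control replicate 3 held Nr3c1 at 2879 (2921 to 2926). Control replicate 2 held Gm19445 at 455.8 (401.7 to 409.2) and the medial habenula list at 1.09 on the log2 scale relative to the Control mean (-0.50 to -0.28).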

How the results depend on the processing

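Under every alternative run, 0 of the 4 genes had an adjusted p under 0.05 in limma, and Hcn3 and Hcn4 kept a positive log2 difference. That of Hcn2 was -0.10 after the correction for G+C content and length, with or without the replicate block, and ranged from -0.0411 (without Anesthesia replicate 3) to 0.118 with 1 mouse left out. That of Pex5l was 0.0069 with the choroid plexus covariate and ranged from -0.104 to 0.0353 with 1 mouse left out. Genes with an adjusted p under 0.05 numbered 0 under all other settings, limma voom included, and 0 to 2 with 1 mouse left out, the 2 without Control replicate 1. Genes with an unadjusted p under 0.05 numbered 1513, 1468 with voom, 929 with the G+C and length correction and replicate block together, 857 with the choroid plexus covariate, and 1061 to 2022 with 1 mouse left out. The replicate block alone gave 1084 and changed no call of the 4 genes (Hcn3 adjusted p = 0.806 in limma). With that block the SE of Pex5l fell from 0.11 to 0.07, and those of Hcn3 and Hcn4 rose from 0.23 to 0.26 and from 0.22 to 0.26. Over all genes tested, same-numbered mice did not deviate together (correlations of -0.24, -0.11, -0.18 and 0.02). These correlations cannot show whether the numbers pair mice, and no source used here says so. The causes were not tested. Of the 4 genes, Hcn3 and Hcn4 had the fewest reads, at approximately 49 to 119 and 23 to 54 a library. Their variation between mice was above that from counting alone, at 29.7% beside 11.4% and 22.6% beside 15.8%.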

Other observations

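Anesthesia replicate 3, the mouse with the highest Hcn2, Hcn3 and Hcn4 values, was at an extreme for more genes than any other mouse. It held the highest value of the 8 for 20.3% of the genes tested and the lowest for 21.0%, where an even split gives 12.5%. The next was Anesthesia replicate 2, with 16.1% and 15.0%, and each of the other 6 mice held the highest value for 8.47% to 12.8% of genes. Among the 8 potassium channel genes Kcnh1 to Kcnh8 of the list of related channels, Anesthesia replicate 3 was the highest mouse for Kcnh1 (1546 normalized counts), Kcnh3 (1402), Kcnh4 (38.0), Kcnh5 (844.4), Kcnh6 (23.0) and Kcnh7 (4308), and not for Kcnh2 (187.3) or Kcnh8 (30.8). It was also not the highest for Cnga4 (13.4) or Cngb1 (13.3) of the same list. For Kcnh6 the lead was very small at a low level, with Control replicate 4 at 22.2, so these 2 mice were nearly tied. These genes were named here after their values were seen.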
